A study of Mus musculus with 10 samples.

Results

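Effector regulatory T cells of a mouse colorectal carcinoma were taken from 5 single-cell RNA libraries of tumour-infiltrating T lymphocytes. A cell was a member if it had at least 300 detected genes, at most 10% of its unique molecular identifiers (UMIs, which count captured mRNA molecules) from mt- genes, at least 1 UMI of Cd3e or Cd3g, at least 1 of Foxp3, none of Cd8a or Cd8b1, and at least 1 UMI of Klrg1, Areg, Il10, Penk or Tnfrsf9. This gave 958 members of 22590 cell barcodes, and 958 of the 1346 Foxp3+ cells. The remaining 388 Foxp3+ cells had none of the 5 transcripts. A further 6173 cells with Cd4 and without Foxp3 or Cd8 UMIs are called CD4 conventional cells here. The libraries came from 3 groups: S. chamaejasme plus anti-PD-1 therapy (called combination, 2 libraries), S. chamaejasme alone (1 library) and untreated (2 libraries). Stellera chamaejasme is a flowering plant, and anti-PD-1 is an antibody against an inhibitory receptor of T cells. A T cell receptor (TCR) library of each sample was sequenced beside the RNA library. The labels name Mus musculus and colorectal carcinoma, and give no strain, age, genotype, dose, time or batch. They do not say whether 2 libraries of a group came from 2 animals, so the spread between libraries may be technical. The antibody was always given together with S. chamaejasme, and can be compared only on top of it.

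Regulatory T (Treg) cells are CD4 T cells that restrain immune responses, and their lineage is set by the transcription factor Foxp3. After activation they leave the resting, lymph node-homing state marked by Ccr7 and Tcf7 and become effector cells that settle in tissues. Tissue Treg cells can carry the inhibitory receptor Klrg1 and the IL-33 receptor ST2 (Il1rl1), and can secrete amphiregulin (Areg), a ligand of the EGF receptor that promotes epithelial repair. Il10 encodes an anti-inflammatory cytokine, Penk the precursor of enkephalin opioid peptides, and Tnfrsf9 the costimulatory receptor 4-1BB, which marks recent TCR stimulation.

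Members numbered 293 and 279 in the combination libraries, 222 in the S. chamaejasme library, and 51 and 113 in the untreated libraries. Their summed UMIs were 1522771 and 1648231 in combination, 734270 in S. chamaejasme, and 200822 and 503682 in untreated. The whole libraries held between 8763821 and 27759543 UMIs, and the untreated ones were the smallest. A median member held 4233 and 5053 UMIs in combination, 2714.5 in S. chamaejasme, and 3376 and 3739 in untreated. Other Foxp3+ cells held 4768 and 4335.5, 3044, and 3337.5 and 3395 in the same libraries, so neither state held more UMIs throughout. Members had more detected genes in every library. Their medians were 1638 and 1795 genes in combination, 1198.5 in S. chamaejasme, and 1372 and 1466 in untreated. Those of other Foxp3+ cells were 1553.5 and 1512.5, 1152, and 1230.5 and 1235. Among members, 64 were marked as likely doublets, 33 of them for carrying 2 or more productive TCR beta chains, and 10 had at least 10 immunoglobulin UMIs. Across the series 251 barcodes occurred in more than 1 library, and 24 members had such a barcode.

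The label was checked against Treg genes that the rule did not read. Against CD4 conventional cells, all 19 tested genes of a Treg identity list were higher in members, with a median log2 difference of 2.43 (edgeR quasi-likelihood test on UMIs summed per library, Benjamini-Hochberg adjusted p under 0.05). Of all 6532 tested genes 2495 (38.2%) were called in either direction, 1276 of them higher in members. Ctla4, a receptor through which Treg cells compete for costimulation, was detected in 920 members (96.0%). Ikzf2, which encodes the Treg transcription factor Helios, was detected in 835 (87.2%), and Il2ra, the alpha chain of the IL-2 receptor, in 484 (50.5%). Gata3, which is associated with tissue-repair Treg cells, was found in 622 (64.9%). Cd4 itself was detected in 440 members (45.9%). Foxp3, in a gene at chrX:7573644-7595245 (mm10, plus strand), was represented by exactly 1 UMI in 468 members (48.9%).

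Among the 5 transcripts that chose the cells, Tnfrsf9 was the most widespread, and these values are a description with no test. It was detected in 819 members (85.5%), Klrg1 in 395 (41.2%), Areg in 343 (35.8%), Il10 in 246 (25.7%) and Penk in 171 (17.8%). The order differed by UMIs, since members held 5938 UMIs of Tnfrsf9, 3392 of Penk, 1757 of Areg, 1350 of Klrg1 and 829 of Il10. Penk was concentrated in few cells, and 1 cell of combination 1 held 155 of its UMIs. Exactly 1 of the 5 transcripts was found in 352 members (36.7%), 2 in 305 (31.8%), 3 in 205 (21.4%), 4 in 83 (8.66%) and all 5 in 13 (1.36%). The commonest pattern was Tnfrsf9 alone, in 250 members (26.1%). Areg with Tnfrsf9 was found in 94, Klrg1 with Tnfrsf9 in 94, and Klrg1, Areg and Tnfrsf9 together in 74. All 5 genes lie apart in the mm10 genome: Klrg1 at chr6:122270596-122282882 (minus strand), Areg at chr5:91139599-91148432 (plus), Il10 at chr1:131019845-131024974 (plus), Penk at chr4:4133531-4138819 (minus) and Tnfrsf9 at chr4:150914562-150946102 (plus).

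Cells that should lack the 5 transcripts gave the background of free RNA. In CD8 T cells, which can express some of them themselves, at a median of 4707 UMIs against 3942.5 in members, Klrg1 was detected in 0.560% of cells, Il10 in 0.153%, Penk in 0.484%, Areg in 0.688% and Tnfrsf9 in 4.43%. The shares in members were raised by the rule and are not set against these. In all Foxp3+ cells, which the 5 transcripts did not choose, the shares were higher than in CD8 T cells. They were 29.3% for Klrg1, 18.3% for Il10, 12.7% for Penk, 25.5% for Areg and 60.8% for Tnfrsf9. The members nearest the rule's lower limit were the 116 with exactly 1 UMI of the 5 transcripts together, at a median of 4130.5 UMIs and a mean of 1.60 Foxp3 UMIs. The Foxp3+ cells just outside it had a median of 3985.5 UMIs and a mean of 1.59 Foxp3 UMIs, and the members with 2 or more UMIs had 3925.5 and 2.07. Another 70 cells met every criterion except for Cd8 UMIs, 42 of them through a single UMI, and 12 failed only for want of Cd3e and Cd3g. The 5 transcripts are not limited to cells with detected Foxp3: 928 Cd4+ cells with 0 Foxp3 UMIs had at least 1 of them.

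**Figure D1:**
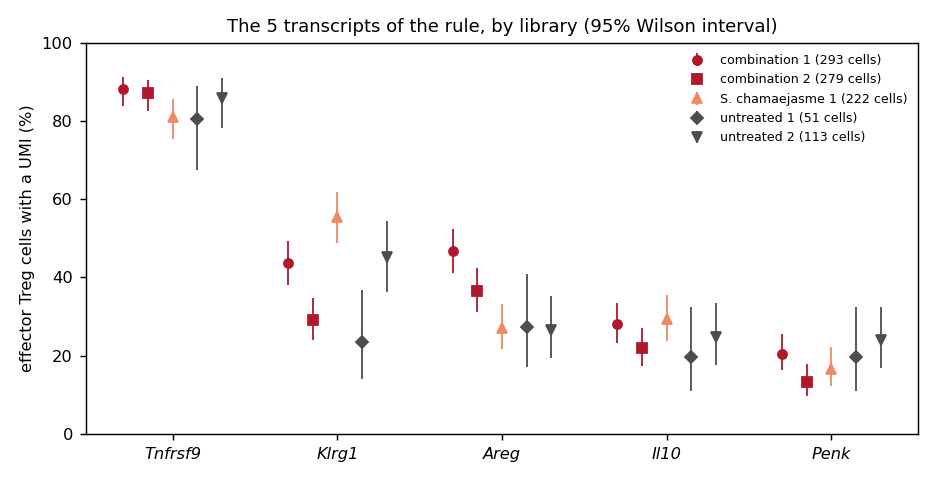
Percentage of members with at least 1 UMI of each of the 5 transcripts that chose them, by library, with combination left of S. chamaejasme and untreated; each point is 1 library and its bar a 95% Wilson interval that covers counting error only. Tnfrsf9 was the most widespread in every library, and Areg stood at 46.8% and 36.6% in combination, above the 27.0% of S. chamaejasme and the 27.5% and 26.5% of untreated. Cells with more UMIs are more likely to show a transcript. A median member held 4233 and 5053 UMIs in combination, 2714.5 in S. chamaejasme, and 3376 and 3739 in untreated.

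The level of the 5 transcripts within members is again given without a test, in CPM, the UMIs of a gene in summed cells scaled to a fixed library total after TMM normalization. Areg stood at 534 and 297 CPM in combination, 427 in S. chamaejasme, and 189 and 178 in untreated. Both combination libraries and the S. chamaejasme library were above both untreated ones. Klrg1 stood at 278 and 174 CPM in combination, 546 in S. chamaejasme, and 131 and 432 in untreated, so the untreated libraries spanned both combination values. Il10 stood at 191 and 131 CPM in combination, 243 in S. chamaejasme, and 112 and 238 in untreated. Penk stood at 1000.5 and 358 CPM in combination, 920 in S. chamaejasme, and 1088 and 731 in untreated, with combination 2 apart from the other libraries. Tnfrsf9 stood at 1413 and 971 CPM in combination, 1578 in S. chamaejasme, and 1413 and 1440 in untreated. A level in summed cells combines how many cells held a transcript and how many UMIs each held. Areg had 831 UMIs in 137 members and 495 in 102 in combination, 305 in 60 in S. chamaejasme, and 39 in 14 and 87 in 30 in untreated.

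Members were next compared with the other Foxp3+ cells of the same 5 libraries, leaving out the 10 genes of the rule. Most tested genes of the effector Treg list and of the list of secreted and repair factors were higher in members, and most of the resting and central list were lower. Of 6532 genes tested with library as a block, 1186 (18.2%) passed an edgeR adjusted p of 0.05: 627 (9.60%) were higher in members and 559 (8.56%) lower. Without combination 1, the library with the most members, 782 passed, and after thinning each cell to 1500 UMIs 446. In a list of effector Treg genes, 30 of 33 tested genes rose and 1 fell, with a median log2 difference of 1.55, against -0.01 over all genes tested. The lists were drawn up with earlier results of these data known. Since effector Treg cells are known to hold these genes together, the list describes the members and is not independent evidence of them.

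Among receptors for tissue signals, Il1rl1 (chr1:40429570-40465415, mm10, plus strand), which encodes the IL-33 receptor ST2, stood at 78.3 and 52.9 CPM in members of combination, 121 in S. chamaejasme, and 85.5 and 98.4 in untreated. In other Foxp3+ cells it stood at 5.42 and 5.35, 9.85, and 9.30 and 5.84 CPM in the same libraries. The 2 states did not overlap, and the log2 difference was 3.60 (SE 0.33, edgeR adjusted p = 1.17e-08). Ccr8, a chemokine receptor of tumour Treg cells, averaged 397 ± 125 CPM in members and 58.9 ± 28.4 in other Foxp3+ cells (SD, n = 5 libraries each; log2 difference 2.73, SE 0.15). Il18rap, a subunit of the IL-18 receptor, was higher by 3.76.

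Among factors that members could deliver, Itgb8 (chr12:119158022-119238802, minus strand), whose integrin activates latent TGF-beta, stood at 74.8 and 63.9 CPM in members of combination, 69.1 in S. chamaejasme, and 54.0 and 75.7 in untreated. Other Foxp3+ cells had 7.23 and 8.92, 3.28, and 18.6 and 5.84 CPM, and again the states did not overlap (log2 difference 3.16, SE 0.30, edgeR adjusted p = 1.84e-08). Its partner Itgav averaged 310 ± 78.4 CPM in members and 62.6 ± 19.4 in other Foxp3+ cells, and the cytokine Tgfb1 averaged 346 ± 77.5 and 157 ± 19.0 CPM. Ebi3, a subunit of the suppressive cytokine IL-35, averaged 54.0 ± 23.7 CPM in members and 8.65 ± 7.06 in other Foxp3+ cells. Fgl2, which encodes a secreted suppressive fibrinogen-like protein, averaged 57.6 ± 23.8 and 13.6 ± 14.3 CPM. In the list of secreted and repair factors, 6 of the 7 tested genes rose and none fell, where 9.6% of all tested genes rose. The list had 15 genes, and the other 8 were rule genes or had too few UMIs.

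Of the granzyme genes, Gzmb and Gzma were higher in members, while Gzmk had 4 UMIs in all members and the perforin gene Prf1 had 14. Gzmb, which encodes granzyme B, averaged 392 ± 180 CPM in members and 28.6 ± 21.2 in other Foxp3+ cells (log2 difference 3.31, SE 0.54). Gzma, granzyme A, stood at 228 and 115 CPM in members of combination, 87.3 in S. chamaejasme, and 932 and 94.7 in untreated. Other Foxp3+ cells had 0 and 10.7 CPM, 29.6, and 0 and 5.84 (log2 difference 4.31, SE 0.46, edgeR adjusted p = 1.16e-07). Untreated 1 thus stood far above the other libraries. Gzma was detected in 83 members (8.66%), and 1 cell held 162 of its 918 UMIs. A list of 9 markers of cytotoxic and natural killer cells, which includes Gzma, summed to 183 to 282 CPM in members of combination, 165 in S. chamaejasme and 125 to 1081 in untreated, and to between 0 and 55.0 CPM in other Foxp3+ cells. Klrb1c, the natural killer receptor NK1.1, was at 0 in all members.

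Among transcription factor genes, Gata3 (chr2:9857078-9890034, minus strand) stood at 546 and 381 CPM in members of combination, 663 in S. chamaejasme, and 261 and 492 in untreated. Other Foxp3+ cells had 136 and 94.6, 82.1, and 112 and 175 CPM. Every member value was above every value of the other cells (log2 difference 2.05, SE 0.16, edgeR adjusted p = 6.57e-10). Id2, a repressor that shapes effector T cell fate, averaged 976 ± 233 CPM in members and 155 ± 33.7 in other Foxp3+ cells. Rora, a nuclear receptor of tissue lymphocytes, averaged 777 ± 196 and 210 ± 65.9 CPM. Ikzf2 averaged 860 ± 136 CPM in members, 289 ± 50.3 in other Foxp3+ cells and 80.3 ± 24.4 in CD4 conventional cells. Prdm1, which encodes Blimp-1, rose by 1.85 and Batf by 1.01 on the log2 scale. The Treg identity list divided: 13 of 19 tested genes rose and 2 fell, where 9.6% of all tested genes rose and 8.56% fell. One of its genes, Nrp1, a surface marker of thymic Treg cells, fell by 1.17 on the log2 scale.

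Several costimulatory and inhibitory receptor genes rose. Tnfrsf4 (OX40) averaged 1477 ± 348 CPM in members and 481 ± 94.1 in other Foxp3+ cells, and Icos 1067 ± 216 and 521 ± 200. Pdcd1, which encodes PD-1, averaged 219 ± 77.8 and 35.7 ± 38.9 CPM, and Tigit 673 ± 133 and 181 ± 45.8. Of 12 tested inhibitory receptor genes 8 rose and none fell, and of 15 tested genes of TNF receptors and costimulation 6 rose and 2 fell. Of all tested genes 9.6% rose and 8.56% fell. Ctla4 rose less, at 1633 ± 275 CPM in members and 1064 ± 156 in other Foxp3+ cells (log2 difference 0.62, SE 0.10).

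Genes of resting cells were lower. Tcf7, the transcription factor of resting T cells, fell by 1.62, Lef1 by 1.34, Ccr7 by 1.06 and the egress receptor S1pr1 by 1.95 on the log2 scale. Ccr7 was not lost, being detected in 336 members (35.1%) and in 63.9% of CD4 conventional cells. Without TMM its level over all libraries was 877 CPM in members and 880 in CD4 conventional cells. Tcf7 was detected in 14.2% of members and 64.5% of CD4 conventional cells. In the resting and central list 15 of 19 tested genes fell and 1 rose, where 8.56% of all tested genes fell and 9.6% rose. The survival gene Bcl2 stood at 49.8 and 98.1 CPM in members of combination, 37.8 in S. chamaejasme, and 27.0 and 68.2 in untreated. Other Foxp3+ cells had 291 and 236, 210, and 140 and 198 CPM, all above every member value (log2 difference -1.90, SE 0.19, edgeR adjusted p = 2.98e-08). Its relative Bcl2l1 averaged 95.3 ± 41.6 CPM in members and 21.7 ± 12.7 in other Foxp3+ cells, so the pair moved in opposite directions.

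**Figure D2:**
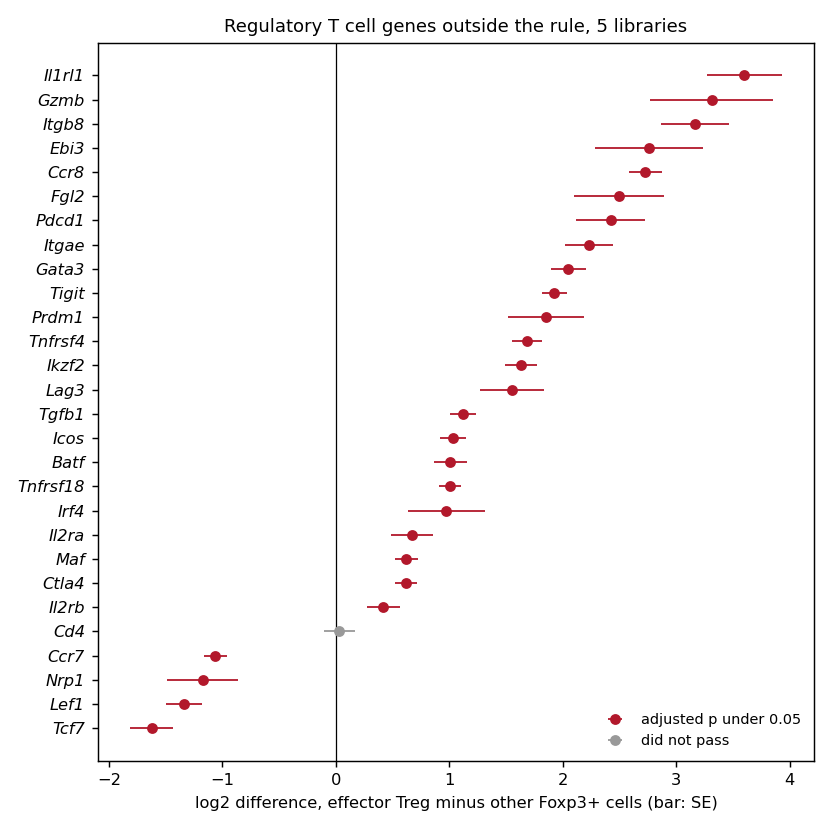
Log2 difference of members over other Foxp3+ cells for Treg genes outside the rule, 1 row per gene, with bars for the standard error, over 5 libraries. Il1rl1 is highest at 3.60 and Tcf7 lowest at -1.62; Cd4 (0.03), in grey, did not pass.

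The genes chosen by the fixed rule for the largest differences were not all known Treg genes. Ky, which encodes a muscle protease, had 368 UMIs in members and 1 UMI in other Foxp3+ cells, a ratio of 139 with an exact 95% interval of 24.8 to 5502 that covers counting error only. Ctsh, which encodes the lysosomal protease cathepsin H, had 183 UMIs in members and 1 in other Foxp3+ cells (ratio 69.1, interval 12.2 to 2743), and Trf, transferrin, had 163 and 1. Pcyt1a, an enzyme of phosphatidylcholine synthesis, averaged 124 ± 73.1 CPM in members and 5.66 ± 4.04 in other Foxp3+ cells. Hopx, a homeodomain protein of effector T cells, averaged 155 ± 68.9 and 22.7 ± 25.7 CPM, and untreated 1 came closest, at 67.5 in members and 65.1 in other Foxp3+ cells. Cyp1a1, a target of the aryl hydrocarbon receptor, averaged 27.3 ± 15.7 and 1.45 ± 3.23 CPM. The rule also named Adam8 (log2 difference 3.66), a membrane metalloprotease. Genes named for the largest falls included Igfbp4 (-2.32), Treml2 (-2.16), Pik3ip1 (-2.10), Il6ra (-2.09), Kbtbd11 (-2.03), Tdrp (-2.02), St8sia6 (-2.01), Atp1b1 (-1.96) and Fbxo17 (-1.96). Igfbp4, a binding protein of insulin-like growth factors, averaged 56.4 ± 27.7 CPM in members and 251 ± 163 in other Foxp3+ cells.

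Stress and quality genes moved with the state as well. None of 20 tested heat shock genes rose and 9 fell, where 9.6% of all tested genes rose and 8.56% fell. Among the 9 was Dnajb1, a co-chaperone, at 398 ± 91.1 CPM in members and 792 ± 59.8 in other Foxp3+ cells. None of 13 tested mitochondrially encoded genes rose and 9 fell, with a median log2 difference of -0.33. Their part in the state differences was not tested. Some markers of other cell types were detected in members: Cst3 in 549, Ighm in 320, Epcam in 206, Kit in 96 and Pecam1 in 93, while C1qa, Adgre1, S100a8, Ms4a1, Krt8, Krt19 and Col1a2 were at 0. The 10 B and plasma cell markers summed to 172 to 207 CPM in members of combination, 332 in S. chamaejasme and 124 to 199 in untreated, and to 173 to 1478, 110 and 73.8 to 165 CPM in other Foxp3+ cells. The part of other cell types in the state differences was not tested. The 15 myeloid markers summed to 185 to 338 CPM in members and 111 to 194 CPM in other Foxp3+ cells, and most of that was Cst3, which lymphocytes can also express. The 9 epithelial markers summed to 34.9 to 110 CPM in members and 0 to 26.4 in other Foxp3+ cells, mostly as Epcam.

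Members also differed among themselves. Each was split by whether it held a transcript, and genes outside the rule were tested between both sums of the same library. A member without the transcript always held another of the 5, and cells with more UMIs are more likely to show any transcript. The split by Klrg1 called 450 of 4200 tested genes (10.7%), 283 (6.74%) higher and 167 (3.98%) lower in members with Klrg1. Without combination 1, 217 were called, and without combination 2, 242. The split by Penk called 116 of 3177 (3.65%; 53 without combination 1 and 59 without the S. chamaejasme library). The split by Tnfrsf9 called 56 of 2508 (2.23%; 22 without combination 1, 32 without combination 2 and 26 without S. chamaejasme). The split by Il10 called 61 of 4090 (1.49%; 29 without combination 1, 37 without combination 2 and 33 without untreated 2). The split by Areg called 7 of 4872 (0.144%; between 2 and 28 when any library was left out). The number of tested genes and the sizes of the sums differed between splits, so the counts are not compared.

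Members with Klrg1 held more of the genes that set members apart from other Foxp3+ cells. The rule placed every Foxp3+ cell with Klrg1 among members, so both comparisons share these cells and their agreement is not independent. In the effector Treg list 19 of 32 tested genes rose and 1 fell, and in the resting and central list 1 rose and 11 of 16 fell. Of all genes tested in this split 6.74% rose and 3.98% fell. Il1rl1 was detected in 143 of the 395 members with Klrg1 (36.2%) and in 7.64% of members without it. Its level was 158 ± 68.8 CPM in members with Klrg1 and 46.5 ± 37.3 in members without (SD, n = 5 libraries), higher in 4 of 5 libraries (log2 difference 2.30, SE 0.29). Gata3 averaged 877 ± 312 and 282 ± 52.8 CPM, higher in members with Klrg1 in 5 of 5 libraries. Ctsh averaged 92.2 ± 26.0 CPM with Klrg1 and 10.3 ± 11.9 without. Fgl2 averaged 116 ± 24.3 and 29.8 ± 11.7 CPM, and Ahr, which encodes the aryl hydrocarbon receptor, 350 ± 42.2 and 150 ± 53.0. Ccr7 averaged 232 ± 38.6 CPM with Klrg1 and 1034 ± 303 without, lower in all 5 libraries. These and the following genes were picked after their values were seen.

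Members with Il10 differed in other genes. Prdm1, whose product Blimp-1 is needed for Il10 expression in effector Treg cells, averaged 103 ± 51.4 CPM in members with Il10 and 34.8 ± 7.78 in members without (log2 difference 1.36, SE 0.23). Irf4, a transcription factor of effector Treg cells, averaged 73.2 ± 32.9 and 32.6 ± 14.1 CPM, and Maf, another regulator of Il10, 498 ± 73.4 and 343 ± 74.3. Lag3, an inhibitory receptor, averaged 256 ± 142 and 109 ± 56.7 CPM. Lrrc32, which anchors latent TGF-beta at the Treg surface, averaged 65.2 ± 18.4 CPM with Il10 and 140 ± 6.37 without, lower in all 5 libraries. Il1rl1 was not called in this split (66.2 ± 41.9 and 103 ± 33.5 CPM, adjusted p = 0.863 by edgeR). Heat shock genes rose with Il10, 5 of 20 tested, where 1.15% of all tested genes rose, with Hspa1a at 1580 ± 635 and 531 ± 278 CPM, although the same list was lower in members than in other Foxp3+ cells.

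Members with Penk held more Hopx (362 ± 116 CPM with Penk and 128 ± 67.3 without), Il1rl1 (155 ± 52.2 and 81.7 ± 25.2) and Gata3 (789 ± 290 and 452 ± 144). Lag3 was lower with Penk, at 81.4 ± 31.5 CPM against 156 ± 80.8 without (log2 difference -0.96, SE 0.23), and higher with Il10. Members with Tnfrsf9 held more Itgb8, at 79.2 ± 7.58 CPM against 25.0 ± 23.0 without, higher in 5 of 5 libraries. Gata3 averaged 526 ± 182 and 304 ± 35.2 CPM, higher in 4 of 5 libraries (log2 difference 0.82, edgeR adjusted p = 0.0229). Pdcd1 averaged 253 ± 96.3 and 106 ± 36.5 CPM, and Bcl2a1d, an anti-apoptotic NF-kB target, 164 ± 41.1 and 56.6 ± 29.6. Among members with Areg, Gzma averaged 761 ± 1208 CPM against 79.6 ± 35.2 without. Its SD exceeded its mean, since 1 library reached 2911 CPM, and 1 cell held 162 of the 918 Gzma UMIs of all members. Il1rl1 did not pass with Areg (96.9 ± 67.1 and 93.5 ± 37.1 CPM, edgeR adjusted p = 0.841), nor did Gata3 (568 ± 272 and 481 ± 123 CPM, adjusted p = 0.80).

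**Figure D3:**
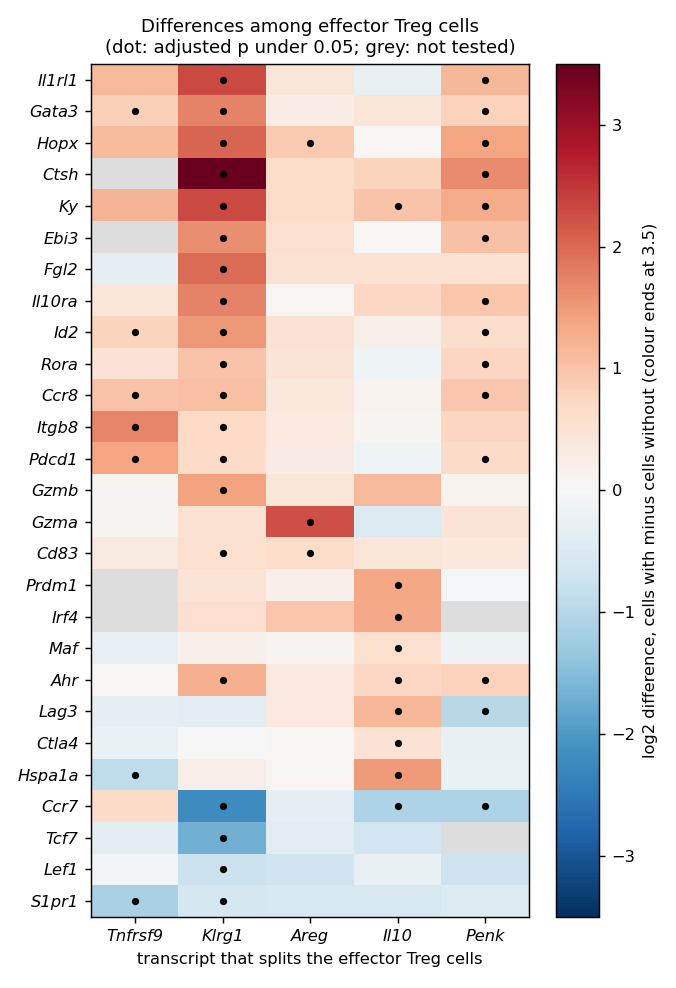
Log2 differences of chosen genes (rows) between members with and without each of the 5 transcripts (columns), with red for higher and blue for lower in members with the transcript, a dot for an edgeR adjusted p under 0.05 and grey where the gene was not tested. Il1rl1 is called in the Klrg1 and Penk columns, Gata3 in these and in the Tnfrsf9 column, and Prdm1, Irf4 and Maf in the Il10 column alone.

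The next question was whether members differed between treatments. Few genes did: 10 of 7508 (0.133%) between combination and untreated, 14 (0.186%) between S. chamaejasme and untreated, and 8 (0.107%) between combination and S. chamaejasme, by edgeR on 5 sums with 2 residual degrees of freedom. At an unadjusted p of 0.05 the counts were 813, 724 and 568. The counts moved with single libraries. Combination over untreated gave 4 without the S. chamaejasme library, 18 without combination 1 and 17 without combination 2. S. chamaejasme over untreated gave 26 without combination 1 and 27 without combination 2, and combination over S. chamaejasme gave 5 without untreated 1 and 23 without combination 1. The single S. chamaejasme library is assumed to vary like the others. Each pair of these comparisons shares libraries. No gene of the lists of effector Treg genes (35 tested), Treg identity (19) or secreted and repair factors (8) was called in any of the 3 comparisons. A test of whether the change of combination over untreated differed between members and other Foxp3+ cells called 1 gene of 7444 (0.0134%), the immunoglobulin gene Iglv1, whose UMIs came almost wholly from 1 cell.

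In the list of TCR and NF-kB response genes, 6 of 26 tested genes passed as higher in the single S. chamaejasme library than in untreated, where 0.133% of all tested genes rose, and 1 of 26, Fos, in combination, where 0.0133% rose. Fos, a subunit of the AP-1 transcription factor, stood at 790 and 630 CPM in combination, 1041 in S. chamaejasme, and 364 and 256 in untreated. All 3 treated libraries were above both untreated ones. The log2 difference was 1.23 (SE 0.21, edgeR adjusted p = 0.035) for combination over untreated, and 1.79 (adjusted p = 0.0033) for S. chamaejasme over untreated. Dusp1, a phosphatase that limits MAP kinases, stood at 1875 and 1490 CPM in combination, 2726 in S. chamaejasme, and 1044 and 838 in untreated. Nr4a1, an early target of TCR signals, stood at 1037 and 789, 1403, and 607 and 467 CPM, and Junb, another AP-1 subunit, at 7498 and 5858, 11916, and 5914 and 5403. Dusp1 (log2 difference 1.55), Nr4a1 (1.41), Junb (1.08), Fosb (1.76) and Bcl3 (1.60) passed for S. chamaejasme over untreated and not for combination over untreated. Hilpda, a hypoxia-induced lipid droplet protein, stood at 358 and 186 CPM in combination, 747 in S. chamaejasme, and 238 and 191 in untreated. The Fos call for combination over untreated depended on single libraries: its adjusted p was 0.0617 without untreated 1, 0.313 without untreated 2, 0.0636 without S. chamaejasme and 0.111 without combination 1. For S. chamaejasme over untreated, Fos and Dusp1 stayed called with each library left out. Junb, Fosb and Hilpda were lost without either untreated library (adjusted p between 0.14 and 0.299), and Nr4a1 (0.14) and Bcl3 (0.182) without untreated 2. When each cell was thinned to 1500 UMIs, Junb alone stayed called for S. chamaejasme over untreated (1.04, adjusted p = 0.00379 by edgeR), with Dusp1 at 1.31 (adjusted p = 0.0535) and Fos at 1.37 (adjusted p = 0.247).

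Genes that track RNA quality moved in the same comparisons. Gm42418 and AY036118, which overlap ribosomal RNA repeats, and Lars2, a mitochondrial leucyl-tRNA synthetase gene that can take up such reads, were the 3 of 6 tested quality genes called lower in combination (0.12% of all tested genes fell) and in S. chamaejasme (0.0533%) than in untreated. Gm42418 stood at 5976 and 6024 CPM in combination, 5035 in S. chamaejasme, and 12114 and 18261 in untreated, and it stayed called in both comparisons with each library left out. AY036118 was lost in both comparisons without untreated 2 (adjusted p = 0.0839 and 0.125), and Lars2, for combination over untreated, without untreated 2 (0.0839) or combination 2 (0.0513). The part of RNA quality in the differences of Fos and the other response genes was not tested.

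Cytokine genes that differed rested on few cells. Ccl20, a chemokine that draws CCR6+ cells, stood at 13.5 and 5.40 CPM in combination, 19.6 in S. chamaejasme, and 58.3 and 90.2 in untreated (log2 difference -3.06, SE 0.39, edgeR adjusted p = 0.0054 for combination over untreated). The UMIs came from 6 and 2 members in combination, 3 in S. chamaejasme, and 1 and 2 in untreated. The call was lost without untreated 2 (adjusted p = 0.356) and with a rule of at least 2 UMIs (0.0775). Il17a, the cytokine of Th17 cells, stood at 1.93 and 21.6 CPM in combination, 169 in S. chamaejasme, and 102 and 30.7 in untreated, in between 1 and 5 members per library. It was lower in combination than in S. chamaejasme (log2 difference -3.80, adjusted p = 0.0096), and the call was lost without untreated 1 (adjusted p = 0.0833) and with DESeq2 (-3.86, adjusted p = 1); with members chosen without Tnfrsf9 the difference was 1.60. Lmna, which encodes lamin A and C, stood at 31.5 and 25.8 CPM in combination, 164 in S. chamaejasme, and 58.3 and 86.1 in untreated, with the S. chamaejasme library above all others (log2 difference -2.51, adjusted p = 0.00018 for combination over S. chamaejasme). Crip1, a LIM domain protein, fell by 1.28 and the chemokine Ccl5 by 2.03 on the log2 scale in the same comparison. Ctla2a, a cathepsin inhibitor, fell by 1.82 and the class I gene H2-Q10 by 1.53 in combination over untreated. Ctla2a was lost without untreated 2 (-0.92, adjusted p = 0.528), S. chamaejasme (0.0916) or combination 2 (0.18), and H2-Q10 without each library except combination 1. Ccl5 was lost without either untreated library or combination 2, with DESeq2 (adjusted p = 0.172) and without cells rich in immunoglobulin UMIs (0.0737), and Crip1 without combination 2 (adjusted p = 0.139). Iglv2 and Ighv1-9, called higher in S. chamaejasme, each had nearly all of their UMIs in 1 cell.

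**Figure D4:**
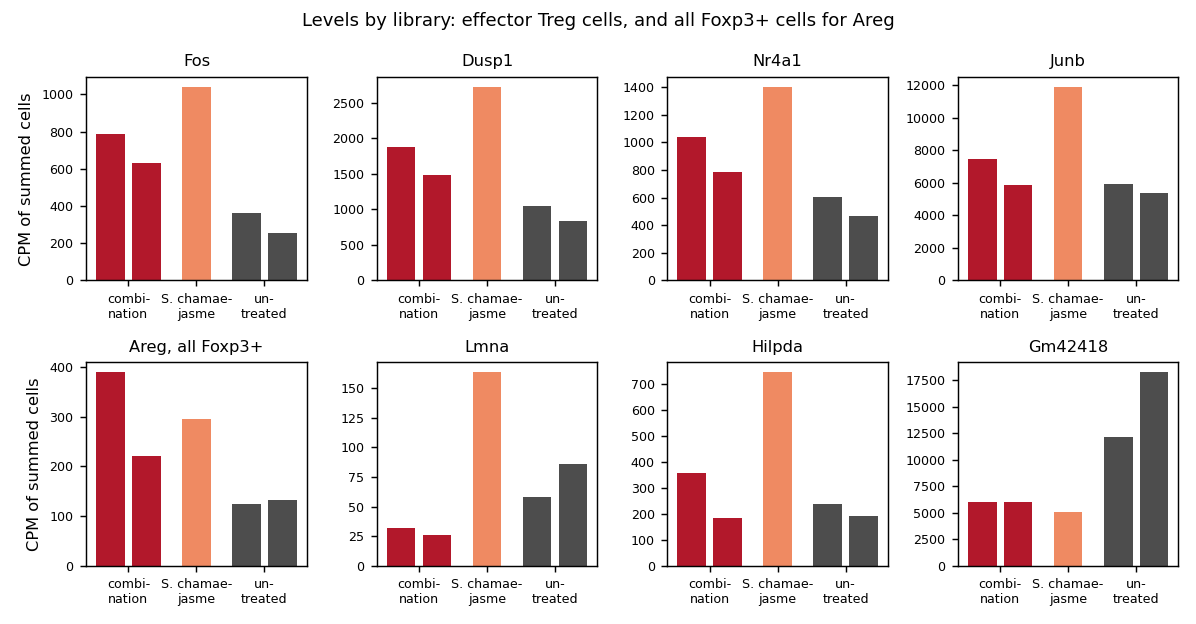
Level of 8 genes in CPM, 1 bar per library, in summed members or, for Areg, in all summed Foxp3+ cells, with combination left of S. chamaejasme (S. cham.) and untreated. Fos and Dusp1 were higher in all 3 treated libraries than in both untreated ones, Lmna was highest in S. chamaejasme at 164, and Gm42418 was lower in the treated libraries.

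The 5 transcripts of the rule can be tested between treatments only over all Foxp3+ cells, where they chose no cell. Areg stood at 389 and 220 CPM in combination, 296 in S. chamaejasme, and 125 and 132 in untreated. The 3 treated libraries did not overlap the untreated ones. The log2 difference of combination over untreated was 1.24 (SE 0.26), which did not pass with an edgeR adjusted p of 0.085 over 8287 genes, of which 12 (0.145%) were called, against 0.205% for S. chamaejasme over untreated and 0.0724% for combination over S. chamaejasme. Over the alternatives tried the adjusted p ran between 3.5e-06 and 0.273. The difference passed without combination 2 (log2 difference 1.60), with DESeq2 (adjusted p = 0.0114), with no filter on low counts (0.0278), with marked doublets removed (0.0234) and with cells thinned. Without combination 1, where the adjusted p was highest, the log2 difference was 0.77. By cell, Areg was detected in 34.2% and 26.1% of Foxp3+ cells in combination, 19.0% in S. chamaejasme, and 18.2% and 18.5% in untreated. After thinning to 1500 UMIs the shares were 30.1% and 23.4% in combination, 14.6% in S. chamaejasme, and 12.2% and 11.1% in untreated. The share in S. chamaejasme was nearer the untreated ones, whereas its level in summed cells lay between both combination values. In that library 1 cell held 59 of the 305 Areg UMIs of members. S. chamaejasme over untreated had a log2 difference of 1.20 (SE 0.30, adjusted p = 0.22), and combination over S. chamaejasme 0.04 (adjusted p = 0.995). Thinning moved these to 0.83 (adjusted p = 0.574) and 1.31 (adjusted p = 0.0196), and S. chamaejasme over untreated also passed without combination 1 (1.21, adjusted p = 0.00428) or without combination 2 (adjusted p = 0.00438).

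The other 4 transcripts did not pass in any comparison over all Foxp3+ cells when all 5 libraries were used. Klrg1 stood at 202 and 129 CPM in combination, 378 in S. chamaejasme, and 86.6 and 320 in untreated, and the untreated libraries differed more from each other than from combination. Il10 stood at 139 and 97.2 CPM in combination, 169 in S. chamaejasme, and 73.8 and 176 in untreated. Tnfrsf9 stood at 1029 and 719 CPM in combination, 1095 in S. chamaejasme, and 934 and 1065 in untreated. Penk stood at 729 and 265 CPM in combination, 639 in S. chamaejasme, and 719 and 541 in untreated (log2 difference -0.33, edgeR adjusted p = 0.73). Without combination 1 the Penk difference was -1.24 with an adjusted p of 0.00185, and that of combination over S. chamaejasme -1.28 (adjusted p = 0.00525). Klrg1 was lower in combination than in S. chamaejasme without combination 1 (-1.57, adjusted p = 0.000325) or without untreated 2 (-1.20, adjusted p = 0.0299), and higher in S. chamaejasme than in untreated without untreated 2 (2.13, adjusted p = 0.0188).

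Members, as chosen by the full rule, were the larger part of Foxp3+ cells in every library. They were 73.1% and 71.4% of Foxp3+ cells in combination, 70.5% in S. chamaejasme, and 66.2% and 69.8% in untreated. The mean was 72.2% ± 1.21 in combination and 68.0% ± 2.49 in untreated (SD, n = 2 libraries each; difference 4.22 percentage points). An exact two-sided permutation test gave p = 0.333, the smallest that 2 libraries against 2 allow. After thinning the difference was 10.0 percentage points (67.7% ± 12.2 in combination and 57.7% ± 2.24 in untreated), and the groups overlapped, with 59.0% in combination 2 and 59.3% in untreated 2 (exact permutation p = 0.667). With members chosen without Tnfrsf9 the shares were 52.2% ± 9.42 and 44.8% ± 10.0 (exact permutation p = 0.667). By library they were 58.9% and 45.5% in combination, 57.5% in S. chamaejasme, and 37.7% and 51.9% in untreated. Members so chosen were thus the smaller part in combination 2 and untreated 1. Among T cells without Cd8 UMIs, members were 7.07% and 7.35% in combination, 5.39% in S. chamaejasme, and 3.03% and 3.97% in untreated. After thinning to 1500 UMIs the shares were 3.61% and 3.05% in combination, 2.73% in S. chamaejasme, and 1.52% and 1.85% in untreated. The groups did not overlap in either form (exact two-sided permutation p = 0.333, again the smallest possible). All Foxp3+ cells together moved alike, at 9.99% ± 0.443 of T cells without Cd8 in combination, 7.65% in S. chamaejasme and 5.14% ± 0.794 in untreated. Enrichment of T cells before capture can set such shares. The labels do not describe it, and its part was not tested.

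TCR chains gave a readout that the rule had not used. A clonotype, the set of productive TCR chains that marks the descendants of 1 cell, was called expanded if it was found in at least 2 cells of a library. The largest clonotype among members held 3 of them, in the S. chamaejasme library, and all 3 had Klrg1 and Tnfrsf9, 2 had Areg and 2 had Penk. The CDR3 sequences, the part of the chain that touches antigen, are printed for 1 clonotype in each of 4 libraries, because they are the tags by which cells were joined to a clone. In S. chamaejasme and untreated 1 it is the clonotype with the most members, and in both combination libraries it is 1 of several tied at 2 members. The sequences are given 5′ to 3′ as deposited, with beta chains encoded on mouse chromosome 6 and alpha chains on chromosome 14.
Combination 1, TRBV31 with TRBJ2-4, beta: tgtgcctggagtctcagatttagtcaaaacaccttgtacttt
Combination 1, TRAV14D-3-DV8 with TRAJ40, alpha: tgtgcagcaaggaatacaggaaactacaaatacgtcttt
Combination 2, TRBV1 with TRBJ2-5, beta: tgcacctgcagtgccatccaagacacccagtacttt
Combination 2, TRAV9D-2 with TRAJ50, alpha: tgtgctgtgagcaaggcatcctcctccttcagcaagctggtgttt
S. chamaejasme, TRBV10 with TRBJ2-2, beta: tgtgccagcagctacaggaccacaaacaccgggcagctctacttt
S. chamaejasme, TRAV10D with TRAJ57, alpha: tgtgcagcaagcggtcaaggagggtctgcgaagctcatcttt
Untreated 1, TRBV13-1 with TRBJ2-3, beta: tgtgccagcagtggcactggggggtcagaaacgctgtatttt
Untreated 1, TRAV6D-4 with TRAJ11, alpha: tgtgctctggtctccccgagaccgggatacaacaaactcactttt

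Expanded clonotypes took a small share of members. They held 29 of 252 members with a TCR (11.5%) and 18 of 240 (7.50%) in combination, 14 of 151 (9.27%) in S. chamaejasme, and 4 of 36 (11.1%) and 3 of 92 (3.26%) in untreated. Other Foxp3+ cells had 0% and 1.96% in combination, 10.96% in S. chamaejasme, and 0% and 2.78% in untreated. Members had the higher share in 4 of 5 libraries, with a mean difference of 5.39 percentage points (SD 6.01), and an exact two-sided sign-flip permutation test gave p = 0.188, where 5 pairs allow no less than 0.0625. With clones defined by the beta CDR3 and V gene alone the difference was 9.79 percentage points, in 5 of 5 libraries (exact p = 0.0625), and with clones counted among Foxp3+ cells alone it was 2.67. Other Foxp3+ cells with a TCR were fewer than members in every library: 102 and 102 in combination, 73 in S. chamaejasme, and 16 and 36 in untreated. A clone confined to a state is more readily seen in 2 cells where more cells were sampled. The part of cell number in the difference was not tested. CD4 conventional cells had 8.64% and 7.38% in combination, 20.5% in S. chamaejasme, and 18.1% and 9.91% in untreated. Members differed from them by a mean of -4.38 percentage points (exact permutation p = 0.25). A clonotype was shared between a member and another Foxp3+ cell for 1 member, in combination 2. Members shared clonotypes with CD4 conventional cells in 6 and 4 cells of combination, 1 of S. chamaejasme, and 2 and 1 of untreated. Of 628 distinct beta CDR3 sequences in members, 1 occurred in more than 1 library.

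**Figure D5:**
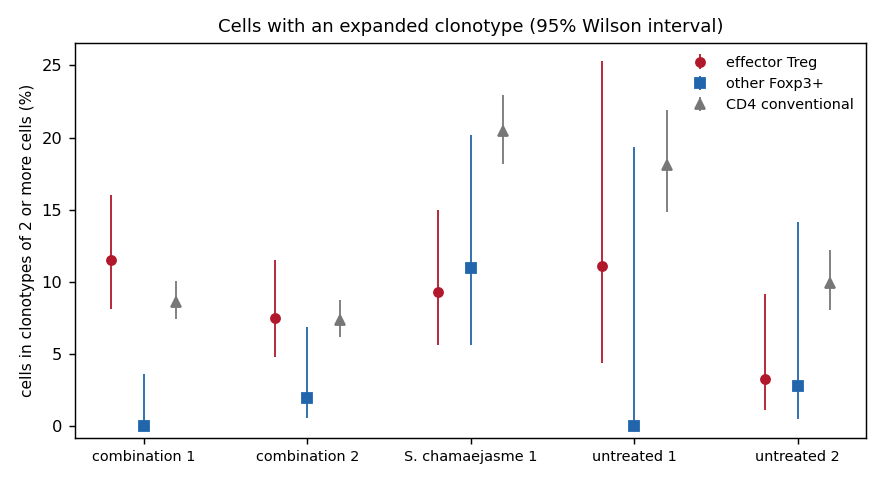
Percentage of cells with a TCR that belong to a clonotype of at least 2 cells, in members, other Foxp3+ cells and CD4 conventional cells, with libraries along the x axis, combination left of S. chamaejasme and untreated; each point is 1 library and its bar a 95% Wilson interval that covers counting error only. Members were above other Foxp3+ cells in 4 of 5 libraries, the S. chamaejasme library being the exception. They also had more cells with a TCR in every library.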

How the data were processed

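Single-cell RNA and TCR libraries of tumour-infiltrating T cells were made with a Chromium 5' kit, per the labels' protocols. The deposited matrices hold raw UMI counts per gene and barcode, and the deposited contig tables hold read and UMI counts and CDR3 letters per chain. Cell Ranger 3.1.0 and STAR on mm10 are named in the submitters' processing notes. The annotation release is not given in the sources used here. Gene positions come from a GENCODE annotation of mm10, in which 465 of 465 genes looked up matched by identifier.

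The members and gene lists were chosen with earlier results of these data known. Cells were chosen by the rule given above, and UMI counts were summed per library and state. Sums were tested with edgeR 4.0.16 (R 4.3.3; filterByExpr, TMM, quasi-likelihood F test, Benjamini-Hochberg adjustment over all tested genes), with library as a block for state contrasts. A standard error is the log2 difference divided by the square root of F. Counts of called genes leave out the 10 genes of the rule. Genes named for size had the 10 largest rises or falls (5 in the contrasts with S. chamaejasme) among genes with an adjusted p under 0.05, at least 20 CPM in the higher group and no overlap or the same direction in all 5 libraries, leaving out mt-, Gm, Rik, TCR and immunoglobulin genes. A panel of Treg genes and the lists were described whatever their values. A few genes that these rules name are not reported here. Doublets were marked by 2 or more productive beta chains or by the highest Scrublet scores (scanpy 1.11.5), at 0.8% per 1000 cells, because the automatic threshold marked only 40 cells. They were kept in the results above and removed in an alternative. Thinning drew 1500 UMIs from each cell and left out shallower cells. It changes which cells pass the rule: 428 cells remained members.

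On counts simulated from these libraries, the test recovered 44% of genes changed by 1 log2 unit and 95% of those changed by 2 between combination and untreated members, and 18% and 84% between S. chamaejasme and untreated. It recovered 88% and 100% between members and other Foxp3+ cells, and 14% and 70% for the interaction of treatment and state. Unchanged genes called in these simulations numbered 1 for combination over untreated, 4 for S. chamaejasme over untreated, 7 for the state contrast and 5 for the interaction. The simulated counts took mean proportions and library sizes from these data and the same fixed dispersion for every gene. They held no other difference between libraries and no transcripts concentrated in few cells, so these figures hold for that setting only. DESeq2 1.42.0 was an alternative. Shares and clone sizes were compared by exact permutation tests over libraries.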

Additional observations from a re-analysis of the deposited data

Results flagged for a closer look

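The change of combination over untreated differed between members and other Foxp3+ cells for 1 of 7444 tested genes (0.0134%), Iglv1, an immunoglobulin light chain gene (edgeR interaction test, adjusted p = 0.000177506). A single cell among the other Foxp3+ cells of combination 1 held 3380 Iglv1 UMIs. Members with any Iglv1 UMI numbered 9, and the highest of them held 41. Without cells rich in immunoglobulin UMIs, 0 genes were called. The count moved when a library was left out, to 14 without untreated 1, 27 without untreated 2, 5 without combination 1 and 7 without combination 2.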

How the results depend on the processing

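The alternatives were RLE size factors, DESeq2, no filter on low counts, each library left out, no library block, doublets removed, a limit of 5% mt- UMIs, thinning, a rule without Tnfrsf9 and a rule of at least 2 UMIs. Leaving out cells rich in immunoglobulin UMIs, and leaving out libraries for the differences among members, were chosen after seeing the data. Of 205 list and named genes called between members and other Foxp3+ cells, 116 stayed called under every alternative that tested them, 135 under every one other than thinning, and 169 with each library left out. The count of called genes between these states was 446 after thinning and 792 without the library block, and 782 to 1248 with a library left out. Against CD4 conventional cells it was 888 after thinning and 1850 without the block, and 1832 to 2798 with a library left out.

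With no filter on low counts, 38 genes were called between combination and untreated members, 33 between S. chamaejasme and untreated, and 22 between combination and S. chamaejasme. With the rule without Tnfrsf9 the counts were 20, 24 and 4, and after thinning 4, 1 and 0. Combination against S. chamaejasme gave 5 with DESeq2, 4 with the rule of 2 UMIs and 3 without cells rich in immunoglobulin. With a library left out the 3 comparisons gave 4 to 18, 14 to 27, and 5 to 23. The interaction of treatment and state gave 0 genes with DESeq2 and without cells rich in immunoglobulin, 2 after thinning, 16 with no filter, and 1 to 27 with a library left out. The differences among members gave 217 to 536 genes for Klrg1, 2 to 28 for Areg, 29 to 66 for Il10, 53 to 133 for Penk and 22 to 62 for Tnfrsf9 with a library left out. Of the 5 transcripts over all Foxp3+ cells, 1 was called for combination over untreated with DESeq2, no filter, doublets removed or thinning (Areg), and 1 for combination over S. chamaejasme after thinning. With a library left out 0 to 1 was called for combination over untreated, 0 to 1 for S. chamaejasme over untreated and 0 to 2 for combination over S. chamaejasme. The clone share difference ran between 3.86 and 7.16 percentage points.

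Some log2 differences turned. Jchain, for S. chamaejasme over untreated, was -0.58 with the rule without Tnfrsf9 and -0.11 with 2 UMIs. For combination over S. chamaejasme, Il17a was 1.60 with the rule without Tnfrsf9 and Ccl5 was 0.70 after thinning. Between members and other Foxp3+ cells, Gm9844 (0.05), Psme2 (-0.08), S100a4 (-0.06) and Stat4 (-0.04) turned after thinning, and Jund (0.02) with the rule without Tnfrsf9. The causes were not tested. Treatments could not be compared in pairs, because the labels do not link a library of 1 treatment group to a library of another.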
